A study of Mus musculus with 2 samples.

Results

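Fetal liver cells that carried RNA of lymphoid tissue inducer (LTi) cells or of group 3 innate lymphoid cells (ILC3) were described within a sorted pool of lymphoid progenitors. Members were chosen by measured values. A member had at least 4 unique molecular identifiers (UMIs, tags that mark distinct RNA molecules) over the sum of 5 genes, Il22, Il23r, Il17re, Ccr6 and Cxcr5. It also had fewer than 4 UMIs over the 4 natural killer (NK) cell genes Klrd1, Klrk1, Klrc1 and Ncr1, and fewer than 4 over the 6 ILC2 genes Il13, Il17rb, Icos, Stab2, Slc38a4 and Rxrg. By this rule there were 583 members among 8583 fetal liver cells kept, 6.79% with an exact Clopper-Pearson 95% interval of 6.27% to 7.35%, out of 15841 cells kept in the whole series. All intervals and floors given here cover counting error only.

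The series holds 1 library from fetal liver of E14.5 embryos and 1 library from bone marrow of adult mice. Both came from untreated wild-type B6 mice, and no source used here gives how many animals were pooled. The labels give the same age of some weeks for both samples, which cannot hold for embryos, and the same batch date. In both tissues the sorted cells were α4β7-expressing lymphoid progenitors (αLPs): negative for a lineage cocktail, Flt3 and CD25, and positive for CD45, CD127 and the integrin α4β7. This gate applied to every group described here. With 1 library per tissue there was no replicate, so differences are described by size and counting interval, without tests or p-values.

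LTi cells are innate lymphocytes of the ILC3 group that seed the anlagen of lymph nodes and Peyer's patches before birth. They signal to stromal organizer cells through the lymphotoxin heterotrimer, which is built from the products of Lta and Ltb, and they depend on the repressor Id2. ILC3 respond to interleukin (IL)-23 and IL-1 and secrete IL-22, a cytokine that acts on epithelial cells, and IL-17.

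From fetal liver 91781395 UMIs over 8946 barcodes were deposited, and from bone marrow 30039931 UMIs over 7367 barcodes. After the filters a median of 9294 UMIs per cell remained in fetal liver and 3447.5 in bone marrow. Members had a median of 6498 UMIs and 1943 genes, against 9604.5 UMIs and 2369 genes in the other 8000 fetal liver cells, so the members were the shallower group. A total of 19 kept barcodes occurred in both libraries. Of the 363 fetal liver barcodes left out by the filters, 7 met the marker rule. Levels below are sums of UMIs over a group of cells per 1000000 UMIs of that group (CPM). Because 3′ tags were counted, CPM values were compared between groups of cells and not between genes. Among the members 3 UMIs correspond to 0.692 CPM.

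The letters AGGTCA are the core at which many nuclear receptors bind DNA. The 250 bases before the start of 15 genes were searched for AGGTCA on both strands: the 5 rule genes, Il17a, Il17f, Lta, Ltb and 6 genes outside the rule that are described below. Promoters were taken from RefSeq on GRCm38.p6, which held 13 of the 15 genes. Of 32851 such windows of all genes, 4607 (14.02%) held the motif. Among the 15 windows of the 13 genes, 6 windows of 6 genes held the motif. It lay 229 and 66 bases before the start of Il23r, 44 before the first listed start of Ccr6, 120 before Il17a, 58 before Il17f, 225 before Krt8 and 196 before Sdc4. These starts are those of RefSeq, while the gene coordinates given below are from GENCODE, and the starts can differ. The windows of Il17f, Sdc4, Il17re and Prr29 lay within the GENCODE span of the gene, as did another listed window of Ccr6 and of Il1r1. Those of Il22, Krt8 and Ltb overlapped it in part. The windows of Il22, Il17re, Lta, Ltb, Prr29, Rasl11a and Il1r1 did not hold these letters. A match describes letters and not binding. The windows of Il22, which carries the marker sum, and of 5 genes with a match are shown 5′ to 3′ on the strand of the gene. Capitals mark AGGTCA or, for the other strand, TGACCT.
Il22 promoter, chr10:118204714-118204963, plus strand: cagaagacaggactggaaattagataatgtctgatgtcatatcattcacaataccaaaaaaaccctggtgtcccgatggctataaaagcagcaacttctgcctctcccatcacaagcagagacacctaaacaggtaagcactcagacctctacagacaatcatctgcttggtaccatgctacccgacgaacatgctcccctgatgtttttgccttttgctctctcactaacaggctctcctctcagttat
Il23r promoter, chr6:67491856-67492105, minus strand: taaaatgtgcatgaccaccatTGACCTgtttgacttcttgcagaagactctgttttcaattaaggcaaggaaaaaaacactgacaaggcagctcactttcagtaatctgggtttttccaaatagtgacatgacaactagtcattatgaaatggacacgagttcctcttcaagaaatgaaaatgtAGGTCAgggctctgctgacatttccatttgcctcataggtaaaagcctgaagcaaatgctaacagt
Ccr6 promoter, chr17:8235793-8236042, plus strand: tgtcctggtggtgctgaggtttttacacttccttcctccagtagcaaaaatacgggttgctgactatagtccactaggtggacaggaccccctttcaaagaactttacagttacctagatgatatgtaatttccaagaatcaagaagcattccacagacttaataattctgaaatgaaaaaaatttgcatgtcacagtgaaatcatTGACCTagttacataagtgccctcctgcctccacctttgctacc
Il17a promoter, chr1:20730655-20730904, plus strand: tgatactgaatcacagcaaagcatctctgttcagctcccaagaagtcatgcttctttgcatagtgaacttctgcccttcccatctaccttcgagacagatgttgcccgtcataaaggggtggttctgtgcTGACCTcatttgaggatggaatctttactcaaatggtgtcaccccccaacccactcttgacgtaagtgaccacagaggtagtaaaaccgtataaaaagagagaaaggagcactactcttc
Il17f promoter, chr1:20784271-20784520, minus strand: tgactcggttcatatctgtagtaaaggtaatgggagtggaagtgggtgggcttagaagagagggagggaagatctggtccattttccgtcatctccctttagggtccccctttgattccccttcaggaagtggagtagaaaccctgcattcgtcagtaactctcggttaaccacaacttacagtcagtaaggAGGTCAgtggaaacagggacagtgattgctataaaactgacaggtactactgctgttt
Krt8 promoter, chr15:102004343-102004592, minus strand: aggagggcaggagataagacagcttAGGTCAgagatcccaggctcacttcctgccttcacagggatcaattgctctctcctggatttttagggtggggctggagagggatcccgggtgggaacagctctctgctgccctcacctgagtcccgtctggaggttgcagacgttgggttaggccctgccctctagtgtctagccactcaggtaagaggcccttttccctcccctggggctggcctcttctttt

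The marker sum came almost wholly from Il22. Il22 (chr10:118204942-118210047, mm10) gave 10065 UMIs in members, 93.5% of all UMIs of the 5 genes. It was counted in 570 of 583 members (97.8%), with a median of 9 UMIs per cell, an interquartile range of 5 to 21 and a maximum of 373. A total of 497 members reached 4 UMIs through Il22 alone, 73 had 1 to 3 Il22 UMIs and 13 had 0. The 58 members with the most Il22 held 41.4% of its UMIs. The receptor genes were sparse: Il17re, whose product is a subunit of the IL-17C receptor, was counted in 40.3% of members, the chemokine receptor gene Ccr6 in 21.6%, the IL-23 receptor gene Il23r in 16.6% and the chemokine receptor gene Cxcr5 in 15.3%. Summed over these 4 genes, 38 members reached 4 UMIs, and 14 members reached 4 UMIs both ways.

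**Figure D1:**
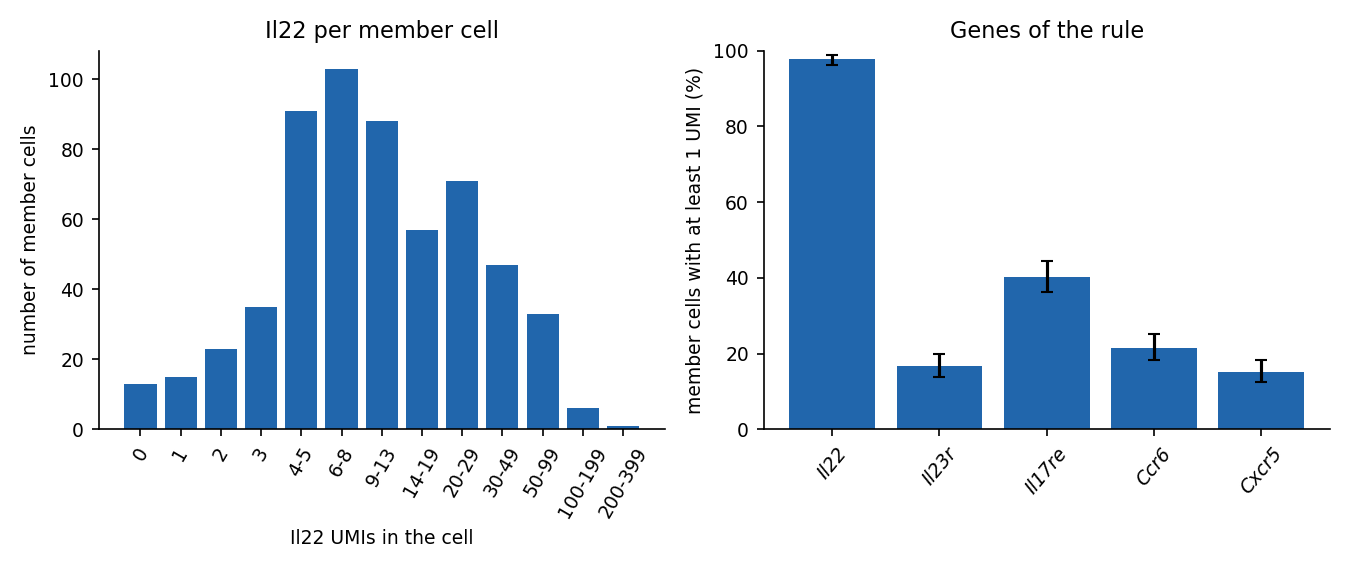
Left, number of member cells (y axis) by the Il22 UMIs in the cell (x axis, bins that widen to the right). Right, percent of the 583 members with at least 1 UMI of each gene of the rule, with exact 95% intervals. Il22 was found in 97.8% of members and Il17re, the most frequent receptor gene, in 40.3%.

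As a description of what the rule chose, Il22 stood at 2322 CPM in members and 16.1 CPM in the rest of fetal liver. Ccr6 (chr17:8236043-8257141) stood at 38.1 CPM in members and 1.69 CPM in the rest, Il23r (chr6:67422932-67491855) at 24.5 and 1.99 CPM, Il17re (chr6:113458484-113470758) at 74.3 and 10.2 CPM, and Cxcr5 (chr9:44511787-44561877) at 24.2 and 2.40 CPM. Just inside the threshold, the 76 members with a marker sum of 4 had 349 CPM of Il22 and 1440.1 CPM of Lta. Just outside it, the 142 cells with a sum of 3 that met neither exclusion had 200.1 CPM of Il22 and 1175 CPM of Lta. Without the exclusions 629 cells had a sum of at least 4. Of these, 21 also reached 4 UMIs by the NK sum and 26 by the ILC2 sum, 1 of them by both.

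Il22 UMIs also occurred outside the members. B-rule cells, 205 fetal liver cells with at least 4 UMIs over the B lineage genes Cd79a, Cd79b, Vpreb1 and Igll1 and with under 4 of each other sum, should lack the gene and served as a measure of free RNA. NK or ILC1-rule and ILC2-rule cells had at least 4 UMIs of the corresponding exclusion genes and under 4 of both other sums. Il22 was counted in 97.8% of members, in 1 of 205 B-rule cells (0.488%), in 46 of 1580 NK or ILC1-rule cells (2.91%) and in 178 of 1718 ILC2-rule cells (10.4%). The rules of these other groups limit Il22 to 3 UMIs per cell. Median depths were 10147 UMIs in B-rule cells, 9617 in NK or ILC1-rule cells and 11937.5 in ILC2-rule cells. Every cell was then thinned to 2000 UMIs, which left out 7 members and 124 other fetal liver cells. At that depth Il22 was counted in 85.6% (82.5% to 88.4%) of members, 1.92% of ILC2-rule cells, 0.888% of NK or ILC1-rule cells and 0.490% of B-rule cells.

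The label was first set beside LTi or ILC3 markers that the rule did not use. Each of 13 further LTi or ILC3 markers had a higher level in members than in the rest of fetal liver, by differences of any size. Their summed level was 3290.2 CPM in members and 877 CPM in the rest. Most of the sum in members came from Lta and Ltb, whose levels are given below. For Ahr, the gene of the aryl hydrocarbon receptor that maintains ILC3, the difference was slight, at 20.3 CPM in members and 19.6 CPM in the rest, and its direction turned with a trimmed mean of M values (TMM) scaling, to a log2 ratio of -0.01. Kit, the stem cell factor receptor gene, stood at 33.0 CPM in members and 28.1 CPM in the rest, and the semaphorin receptor gene Nrp1, a marker of LTi cells, at 24.7 and 5.32 CPM. All 14 NK or ILC1 markers were lower in members, with a summed level of 179 CPM in members and 1825 CPM in the rest, and 2 of them were at 0 in members. Of 12 ILC2 markers 11 were lower, with summed levels of 62.3 CPM in members and 331 CPM in the rest, and 4 were at 0 in members. Both of these sets include genes that the rule excluded. The marker counts of this paragraph take differences of any size. Over all tested genes the median log2 ratio was 0.01, so a direction alone is common among genes. The amphiregulin gene Areg was the ILC2 marker that was higher, at 24.2 CPM in members and 10.3 CPM in the rest.

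Of the sorted proteins, the gene of CD127, Il7r, stood at 486 CPM in members and 163 CPM in the rest of fetal liver. The α4 integrin gene Itga4 had 207 CPM in members and 170.1 CPM in the rest, the β7 integrin gene Itgb7 had 67.1 and 47.0 CPM, and the CD45 gene Ptprc had 58.1 and 79.6 CPM. The genes of the negative gate were near the floor of the members, Il2ra at 1.38 CPM in members and 1.07 CPM in the rest and Flt3 at 0.692 and 1.48 CPM. The inactive X transcript Xist and the Y-linked gene Ddx3y both occurred, Xist at 292 CPM in members and 250.2 CPM in the rest and Ddx3y at 15.5 and 19.9 CPM.

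How the members differed from the other αLPs of the same liver was read from 6597 genes that reached 10 CPM in members or in the rest. A total of 356 genes (5.40%) were at least 2-fold higher in members and 257 (3.90%) at least 2-fold lower, with a median log2 ratio of 0.01 over all tested genes. These are counts by size of difference that come from no test. The shares of 5.40% and 3.90% are the background for each count of list genes against the rest of fetal liver below. A log2 ratio below is members over the other cells named, with an exact conditional 95% interval in parentheses where one is given.

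Lymphotoxin RNA was a large part of the LTi profile outside the rule. Lta (chr17:35203165-35205351) stood at 1492 CPM in members and 186 CPM in the rest of fetal liver, a log2 ratio of 3.01 (2.97 to 3.05). Ltb (chr17:35194439-35196320), in the same gene cluster, stood at 1279 CPM in members and 435 CPM in the rest, a log2 ratio of 1.55 (1.51 to 1.59). Tnf (chr17:35199381-35202007), the inflammatory cytokine gene that lies between Ltb and Lta, had 113 CPM in members and 43.6 CPM in the rest. Ltb was detected in 99.1% of members, with a median of 8 UMIs per cell and an interquartile range of 5 to 13. Lta was detected in 82.0% of members and was less even, with a median of 5 UMIs, an interquartile range of 1 to 16 and 42.2% of its UMIs in the top 58 cells.

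Of 15 tested genes of the lymphotoxin and tumour necrosis factor (TNF) family, 6 were at least 2-fold higher and 2 at least 2-fold lower in members, with a median log2 ratio of 0.88. Tnfrsf11a, which encodes the receptor RANK that LTi cells need for lymph node formation, had 19.4 CPM in members and 3.40 CPM in the rest, a log2 ratio of 2.51 (2.14 to 2.86). Its ligand gene Tnfsf11 had 38.1 CPM in members and 19.9 CPM in the rest, a log2 ratio of 0.94 that lay within 2-fold. Nfkb2, which encodes a subunit of the noncanonical NF-κB pathway, had 17.1 and 5.35 CPM, and Tnfrsf25, the receptor of TL1A, 114 and 49.7 CPM. The death ligand gene Tnfsf10 (TRAIL), at 1.61 CPM in members and 23.0 CPM in the rest, and the costimulatory receptor gene Tnfrsf9, at 23.3 and 70.7 CPM, were the lower ones. Relb, Traf1, Traf2, Tnfsf14 and Tnfrsf18 lay within 2-fold, with log2 ratios between 0.47 (Traf2) and 0.88 (Relb).

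Transcription factor genes split in direction. Of 25 tested genes that are known to act in ILC3 or in related lineages, 6 were at least 2-fold higher and 5 at least 2-fold lower in members, with a median log2 ratio of -0.10. Nr1d1, the gene of the clock repressor REV-ERBα, had 88.8 CPM in members and 24.5 CPM in the rest. Batf, an AP-1 partner, had 105 and 38.1 CPM, Nfil3, a factor required for early ILC development, 71.1 and 29.9 CPM, and the HMG box factor gene Tox2 111 and 53.4 CPM. Tcf7, the gene of TCF-1, had 375 CPM in members and 188 CPM in the rest, a log2 ratio of 1.00. With the TMM scaling Tcf7 and Tox2 moved under 2-fold, to log2 ratios of 0.94 and 0.998, and 4 in place of 6 genes of the list were at least 2-fold higher.

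The lower transcription factor genes included factors of the ILC2 and T cell lineages and of other ILC precursors. Bcl11b stood at 7.61 CPM in members and 59.8 CPM in the rest, a log2 ratio of -2.97 that was -3.67 as a mean of CPM per cell and -6.24 (-11.54 to -3.76) in thinned cells, where 1 UMI was left in members. Gata3, the main factor of ILC2, stood at 48.7 CPM in members and 111 CPM in the rest, a log2 ratio of -1.19. Zbtb16, which encodes PLZF and marks ILC precursors outside the LTi branch, had 12.0 CPM in members and 30.2 CPM in the rest. Sox4 had 39.4 and 91.8 CPM and Ikzf3, the gene of Aiolos, 6.23 and 24.4 CPM. The genes Id2 (578 CPM in members and 568 CPM in the rest), Rora (201 and 232 CPM), Tox (69.4 and 59.8 CPM) and Runx3 (209.9 and 225 CPM), which several ILC lineages share, lay within 2-fold.

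Cytokine genes split in direction. Of 12 tested cytokine and chemokine genes outside the rule, 5 were at least 2-fold higher and 6 at least 2-fold lower, with a median log2 ratio of -0.52. Il17a (chr1:20730905-20734496) had 25.8 CPM in members and 3.20 CPM in the rest, a log2 ratio of 3.01 (2.68 to 3.34) that was 2.24 in thinned cells. Il17f (chr1:20777146-20790617) had 22.1 and 2.96 CPM, a log2 ratio of 2.91 (2.55 to 3.25). Few members carried either gene, Il17a in 51 cells (8.75%) and Il17f in 59 cells (10.1%). Csf2, the gene of GM-CSF, had 88.1 CPM in members and 39.5 CPM in the rest, and the neutrophil chemokine gene Cxcl2 had 686 and 167 CPM. Areg, a growth factor gene that ILC2 also express, was the other higher gene, at 24.2 and 10.3 CPM.

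Ifng, Ccl5 and Il4 were lower in members. The type 1 cytokine gene Ifng had 13.8 CPM in members and 161 CPM in the rest, a log2 ratio of -3.54 that was -4.93 (-6.24 to -3.88) in thinned cells, with 7 UMIs in members. The chemokine gene Ccl5, typical of NK cells, had 108 CPM in members and 892 CPM in the rest. The type 2 cytokine gene Il4 had 2.54 and 27.3 CPM, and its log2 ratio of -3.43 became -4.82 without the 5% of cells with the most UMIs and -4.87 (-10.18 to -2.38) in thinned cells, where 1 UMI was left in members. The chemokine gene Ccl3 had 15.7 CPM in members and 43.0 CPM in the rest, and its log2 ratio of -1.45 became -3.01 without the same 5% of cells. Tgfb1 lay within 2-fold, at 98.7 CPM in members and 86.3 CPM in the rest.

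Among cytokine receptor genes outside the rule, 2 of 16 tested were at least 2-fold higher in members and 0 at least 2-fold lower, with a median log2 ratio of 0.36. Il1r1 (chr1:40225080-40317257), the IL-1 receptor through which ILC3 are activated, had 56.5 CPM in members and 8.30 CPM in the rest, a log2 ratio of 2.77 (2.55 to 2.98) that was 1.87 in thinned cells. Il7r (chr15:9505788-9530176), the receptor of the survival cytokine IL-7, had a log2 ratio of 1.58 (1.51 to 1.65). The interferon gamma receptor genes Ifngr1 (239 CPM in members and 145 CPM in the rest) and Ifngr2 (28.1 and 16.8 CPM) lay within 2-fold, as did the IL-18 receptor gene Il18r1 (92.5 and 65.6 CPM) and the common gamma chain gene Il2rg (179 and 130.5 CPM).

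Of 16 tested homing and egress genes outside the rule, 3 were at least 2-fold higher and 3 at least 2-fold lower, with a median log2 ratio of 0.24. Ccr7, the receptor for lymph node entry, had 33.2 CPM in members and 4.91 CPM in the rest, a log2 ratio of 2.76 (2.48 to 3.03) that was 2.07 in thinned cells. Gpr183, an oxysterol receptor that positions ILC3 in lymphoid tissue, had 166 and 43.1 CPM, and the egress receptor gene S1pr1 had 21.7 and 10.1 CPM. The gut homing receptor gene Ccr9 had 2.54 CPM in members and 42.5 CPM in the rest, a log2 ratio of -4.07 that was -5.71 (-11.02 to -3.23) in thinned cells, where 1 UMI was left in members. Cxcr3, typical of type 1 lymphocytes, had 14.3 and 40.1 CPM. Cxcr6, a receptor of many ILC, lay within 2-fold at 149 CPM in members and 117 CPM in the rest.

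The largest ratios outside the rule, among genes that reached 50 CPM on either side, belonged to genes of several functions. Rasl11a (chr5:146845071-146847726), a gene of a small Ras-like protein, had 191 CPM in members and 15.2 CPM in the rest, a log2 ratio of 3.65 (3.53 to 3.78). Krt8 (chr15:101996698-102004482), which encodes a keratin of simple epithelia, had 142 CPM in members and 11.4 CPM in the rest, a log2 ratio of 3.64 (3.49 to 3.79). In cells thinned to 2000 UMIs the log2 ratio of Rasl11a was 2.92, and that of Krt8 was also lower by over 1.5 times. Krt18, the gene of the usual filament partner of Krt8, had 79.8 CPM in members and 14.4 CPM in the rest, a log2 ratio of 2.47. Krt18 was detected in 49.8% of the 277 members with a Krt8 UMI and in 25.2% of those without. Hmgn3 (chr9:83109948-83146685), a nucleosome binding protein gene, was broad among members, at 966 CPM in members and 126 CPM in the rest and in 96.6% of members.

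Next in order were Hbegf, the gene of a ligand of the epidermal growth factor receptor, with 59.5 CPM in members and 6.35 CPM in the rest, and Bank1, a scaffold known from B cells, with 51.2 and 6.39 CPM. Cd83, a surface marker of activated antigen presenting cells, had 53.3 CPM in members and 6.91 CPM in the rest, and Prr29 had 371 and 49.5 CPM. The syndecan gene Sdc4 had 304 CPM in members and 48.3 CPM in the rest, a log2 ratio of 2.65 that was 1.94 in thinned cells, and the extracellular matrix gene Ecm1 had 87.9 and 13.6 CPM. Pcca, a mitochondrial carboxylase subunit, had a log2 ratio of 2.70, and the RNA binding protein gene Rbpms2 of 2.56. Serinc2 had a log2 ratio of 2.70, and of 1.81 in thinned cells.

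At the other end, the cholecystokinin gene Cck had 2.08 CPM in members and 52.4 CPM in the rest, a log2 ratio of -4.66, and the T cell adaptor gene Skap1 had 5.77 and 63.6 CPM. The interferon induced gene Ifitm1 had 49.1 CPM in members and 750.3 CPM in the rest, a log2 ratio of -3.93 that was -4.78 without the 5% of cells with the most UMIs, and Ifitm2 had 30.7 and 310.0 CPM. The haemoglobin gene Hbb-bs stood at 8.07 CPM in members and 83.3 CPM in the rest, a log2 ratio of -3.37 that turned to 0.45 when cells with under 1000 genes were left out. The log2 ratio of Hba-a2, also a haemoglobin gene, was -2.73 and turned to 0.80 in the same way.

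**Figure D2:**
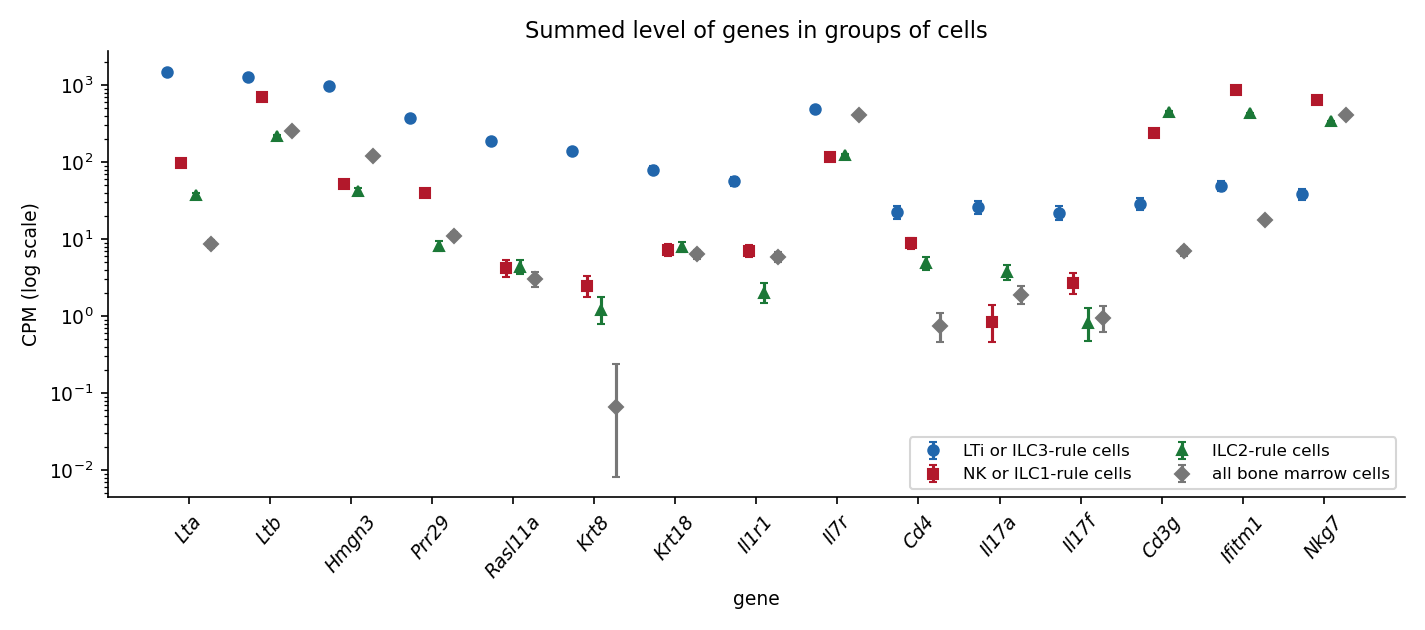
Level in CPM on a log axis of 15 genes outside the rule, in LTi or ILC3-rule cells, NK or ILC1-rule cells, ILC2-rule cells and all bone marrow cells. Points are sums over the cells of 1 library and bars are exact 95% Poisson intervals. Krt8 stood at 142 CPM in LTi or ILC3-rule cells, against 2.46 CPM in NK or ILC1-rule cells, 1.22 CPM in ILC2-rule cells and 0.0668 CPM in bone marrow, while Cd3g, Ifitm1 and Nkg7 were lower in LTi or ILC3-rule cells than in both other fetal rule groups.

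Against the 1580 NK or ILC1-rule cells, 428 of 6538 tested genes (6.55%) were at least 2-fold higher in members and 278 (4.25%) at least 2-fold lower, with a median log2 ratio of 0.07. The TMM scaling shifted all log2 ratios of this comparison by -0.16 and turned the split to 327 higher and 370 lower. Krt8 led with 142 CPM in members and 2.46 CPM in NK or ILC1-rule cells, a log2 ratio of 5.85 (5.39 to 6.34). Rasl11a followed with a log2 ratio of 5.51, Hmgn3 with 4.23, and Hbegf and Lta with 3.95 each. The lowest were the chemokine gene Xcl1, with 2.08 CPM in members and 70.7 CPM in NK or ILC1-rule cells, Ifng with 13.8 and 435 CPM, the NK receptor gene Klri2 with 1.85 and 51.8 CPM, Ifitm1 with 49.1 and 869 CPM and the cytotoxic granule gene Nkg7 with 38.3 and 645 CPM. The log2 ratio of Ifng was -4.97, and -6.33 (-7.65 to -5.28) in thinned cells, with 7 UMIs in members.

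The LTi gene Ltb stood closer in members and NK or ILC1-rule cells than in members and ILC2-rule cells. Ltb had 1279 CPM in members, 695 CPM in NK or ILC1-rule cells and 220.2 CPM in ILC2-rule cells. Lta had 1492 CPM in members, 96.7 CPM in NK or ILC1-rule cells and 37.3 CPM in ILC2-rule cells. Both genes were thus highest in members and lowest in ILC2-rule cells. Il7r had 486 CPM in members, 116 CPM in NK or ILC1-rule cells and 124 CPM in ILC2-rule cells.

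Against the 1718 ILC2-rule cells, 586 of 6634 tested genes (8.83%) were at least 2-fold higher in members and 309 (4.66%) at least 2-fold lower, with a median log2 ratio of 0.01. Krt8 led again, with 142 CPM in members and 1.22 CPM in ILC2-rule cells, a log2 ratio of 6.86 (6.31 to 7.48). Prr29 followed with a log2 ratio of 5.50, Rasl11a with 5.45, Rbpms2 with 5.34, Lta with 5.32 and Serinc2 with 5.29. The AP-1 factor gene Batf3 had 156 CPM in members and 8.60 CPM in ILC2-rule cells, and the MHC class II invariant chain gene Cd74 had 187 and 8.87 CPM. Homer2, a scaffold gene, had 0 UMIs in members and 67.8 CPM in ILC2-rule cells, so its log2 ratio against a floor of 3 UMIs over the members was at most -6.61. Cck had 2.08 CPM in members and 117 CPM in ILC2-rule cells, Ccr9 had 2.54 and 74.1 CPM, Skap1 5.77 and 159 CPM, H19 8.30 and 164 CPM, Bcl11b 7.61 and 129 CPM and Cd3g 28.8 and 454 CPM. In thinned cells, where each had 1 UMI in members, the log2 ratio was -7.46 (-12.77 to -4.98) for Bcl11b, in place of -4.08, and -6.65 (-11.96 to -4.16) for Ccr9, in place of -4.87.

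The CD3 genes and a proximal kinase of T cell receptor signalling moved apart. Of 12 tested genes of this list, 2 were at least 2-fold higher and 4 at least 2-fold lower in members than in the other fetal liver cells (median log2 ratio -0.12), and 17 of the 24 genes listed were in the files. Cd3g (chr9:44969572-44980431), a CD3 chain, had 28.8 CPM in members and 292 CPM in the rest, a log2 ratio of -3.34 (-3.60 to -3.09), and was detected in 9.09% of members. Cd3d had 2.08 and 27.4 CPM, the costimulatory receptor gene Cd28 6.23 and 33.9 CPM, and the ζ chain gene Cd247 a log2 ratio of -1.12. Zap70, the kinase recruited by the ζ chain, had 44.3 CPM in members and 10.8 CPM in the rest, a log2 ratio of 2.03 (1.80 to 2.26). The coreceptor gene Cd4, a surface marker of many mouse LTi cells, had 22.4 CPM in members and 7.34 CPM in the rest and was detected in 84 members (14.4%).

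Of 17 tested immediate early genes, 5 were at least 2-fold higher and 1 at least 2-fold lower, with a median log2 ratio of 0.69. Egr1 had 294 CPM in members and 80.8 CPM in the rest and Fosb 302 and 126 CPM, and Atf3 had a log2 ratio of 1.60. Fos and Jun, the subunits of AP-1, had log2 ratios of 1.09 and 1.15, and the phosphatase gene Dusp2 had 23.5 CPM in members and 69.2 CPM in the rest. Genes of this list can respond to the handling of cells, whose part was not tested. Of 14 survival genes, Bcl2 was at least 2-fold higher, at 217 CPM in members and 63.5 CPM in the rest, and 0 were lower, with a median of 0.29. Over all tested genes 5.40% were at least 2-fold higher and 3.90% lower, so the survival count is near the background. Of 11 ILC progenitor markers 2 were at least 2-fold higher, Bcl2 and Tcf7, and 1 lower, Zbtb16, with a median of 0.40. Pdcd1, a marker of ILC precursors, had 83.7 CPM in members and 42.5 CPM in the rest.

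Of 5 tested MHC class II genes Cd74 was at least 2-fold higher than in the rest and 0 were lower, with a median log2 ratio of 0.78. Against ILC2-rule cells 4 of 5 were at least 2-fold higher, with a median of 3.85, beside 8.83% of all genes tested there. Against NK or ILC1-rule cells 0 of 5 were at least 2-fold higher and 0 lower, with a median of -0.31. Over all genes tested there these shares were 6.55% and 4.25%. The summed level of the list was 310 CPM in members and 296 CPM in NK or ILC1-rule cells. None of 40 tested S phase genes passed 2-fold upwards and 1 did so downwards, with a median of -0.48, and for 37 G2 and M phase genes these counts were 0 and 3 (0 and 5 with the TMM scaling), with a median of -0.72. Over all genes tested against the rest of fetal liver, 5.40% were at least 2-fold higher and 3.90% lower. Top2a, the topoisomerase of dividing cells, had a log2 ratio of -1.09. Of 15 glycolysis genes 0 were at least 2-fold higher and 3 lower, with a median of -0.38. The lower ones were the lactate exporter gene Slc16a3, with 5.77 CPM in members and 20.9 CPM in the rest, the glucose transporter gene Slc2a1 and Pgk1. Of 6 Notch pathway genes the ligand gene Dll1 was at least 2-fold higher (36.4 and 17.2 CPM), the ligand gene Jag1 (7.15 and 20.6 CPM) and the target gene Hes1 (109.6 and 236 CPM) were at least 2-fold lower, and the median was -0.31.

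**Figure D3:**
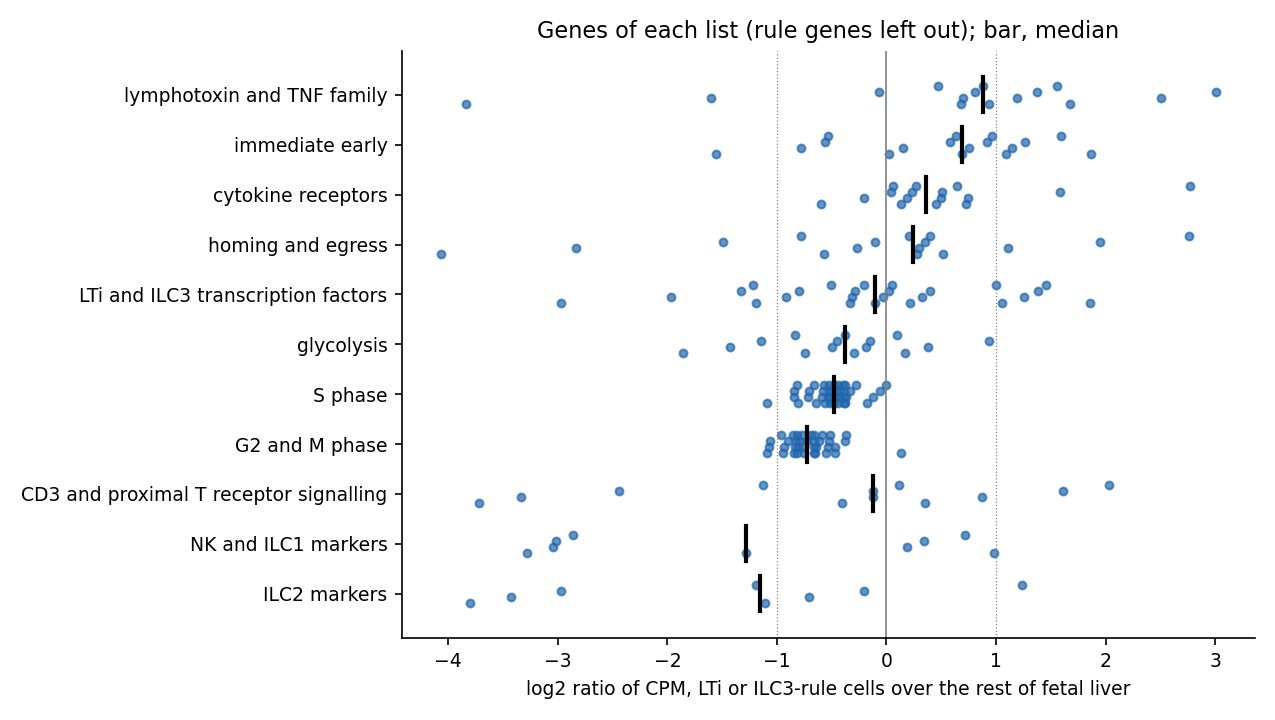
Each point is a gene of the list on the left, placed on the x axis by its log2 ratio of CPM, members over the rest of fetal liver. Bars are list medians, and genes used by the rule are left out. The lymphotoxin and TNF family had a median of 0.88 and the G2 and M phase list of -0.72.

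Most tested genes of each list of another lineage were at least 2-fold lower in members than in the rest. A gene was tested if it reached 10 CPM on either side, so genes scarce in members entered mainly through the rest. The lower counts follow in part from this filter. It kept 3 of 11 T cell genes in the files, 5 of 11 B lineage genes and 13 of 25 myeloid and erythroid genes. Outside the genes of the rule, 5 of 9 NK and ILC1 genes were at least 2-fold lower and 0 higher (median -1.28), and 5 of 8 ILC2 genes were lower and 1 higher (median -1.15). Among tested genes the lower counts were 6 of 8 for early lymphoid progenitor genes (median -1.25), 3 of 5 for B lineage genes (median -1.55), 9 of 13 for myeloid and erythroid genes (median -1.61) and 3 of 3 for T cell genes (median -3.34), with 0 higher in each of these lists. The early lymphoid gene Ly6d had 6.92 CPM in members and 69.4 CPM in the rest, and the B cell receptor gene Cd79a had 3.46 and 27.1 CPM. As means of CPM per cell their log2 ratios of -3.33 and -2.97 became -4.94 and -4.68. In thinned cells they were -5.14 (-7.42 to -3.59) for Ly6d, with 3 UMIs in members, and -5.23 (-10.54 to -2.74) for Cd79a, with 1 UMI. Cd3d, Cd28 and Hmga2 also moved by over 1.5 times in thinned cells, each with 1 to 4 UMIs in members, to -4.91 (-10.22 to -2.43), -4.39 (-7.44 to -2.53) and -3.38 (-5.26 to -2.01). Of 5 tested genes of the fetal Lin28b programme, which marks fetal-type lymphopoiesis, Hmga2 was lower (8.30 and 48.6 CPM) and 0 were higher, with a median of -0.51. Of 5 imprinted growth genes Grb10 was at least 2-fold higher (25.8 and 6.56 CPM), H19 (8.30 and 103 CPM) and Igf2 (1.61 and 15.3 CPM) were lower, and the median was -0.35. The rest of fetal liver is a mixture of lineages, and these directions depended on the cells compared. Against ILC2-rule cells 4 of 8 NK and ILC1 genes outside the rule were at least 2-fold higher in members and 3 lower (median 0.96). Against NK or ILC1-rule cells 2 of 6 ILC2 genes outside the rule were lower and 1 higher (median -0.19). Against ILC2-rule cells 4 of 6 tested myeloid and erythroid genes were at least 2-fold higher in members and 1 lower. Over all genes tested against ILC2-rule cells 8.83% were higher and 4.66% lower. Against NK or ILC1-rule cells these shares were 6.55% and 4.25%.

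Lta, Hmgn3 and Krt8 were already high in cells just short of the rule. Among the fetal liver cells of neither exclusion rule, 3315 had a marker sum of 0, 648 a sum of 1, 278 a sum of 2 and 142 a sum of 3. Over sums of 0, 1, 2, 3, 4 to 9, 10 to 19 and 20 or more, Lta stood at 159, 731, 1283, 1175, 1445, 1439 and 1600.2 CPM. It thus changed most below a sum of 2. It was also higher at sums of 4 to 9, with a counting interval of 1392 to 1499 CPM, than at a sum of 3, with one of 1109 to 1243 CPM. Hmgn3 stood at 109.7, 473, 813, 917, 988, 941 and 954 CPM over the same bins, and Krt8 at 9.37, 52.3, 94.5, 116, 138, 128 and 157 CPM. For Hmgn3 and Krt8 the intervals on both sides of the threshold overlapped, and the rest of fetal liver includes cells with sums of 2 and 3 whose levels were near those of members.

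Ifitm1 and Cd3g ran the other way. Over the same bins Ifitm1 stood at 947, 383, 177, 164, 61.9, 25.2 and 47.9 CPM and Cd3g at 253, 152, 55.1, 23.3, 21.6, 23.2 and 43.5 CPM. Fos had 1667 CPM at sums of 20 or more, against 423 CPM at a sum of 0. Against the 6406 fetal liver cells with a sum of 0, in place of all other cells, 427 genes were at least 2-fold higher in members and 284 at least 2-fold lower, and the log2 ratio of Lta was 3.82, that of Hmgn3 3.74, that of Rasl11a 4.72 and that of Krt8 4.82. Both this setting and the bins were chosen after seeing the data.

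**Figure D4:**
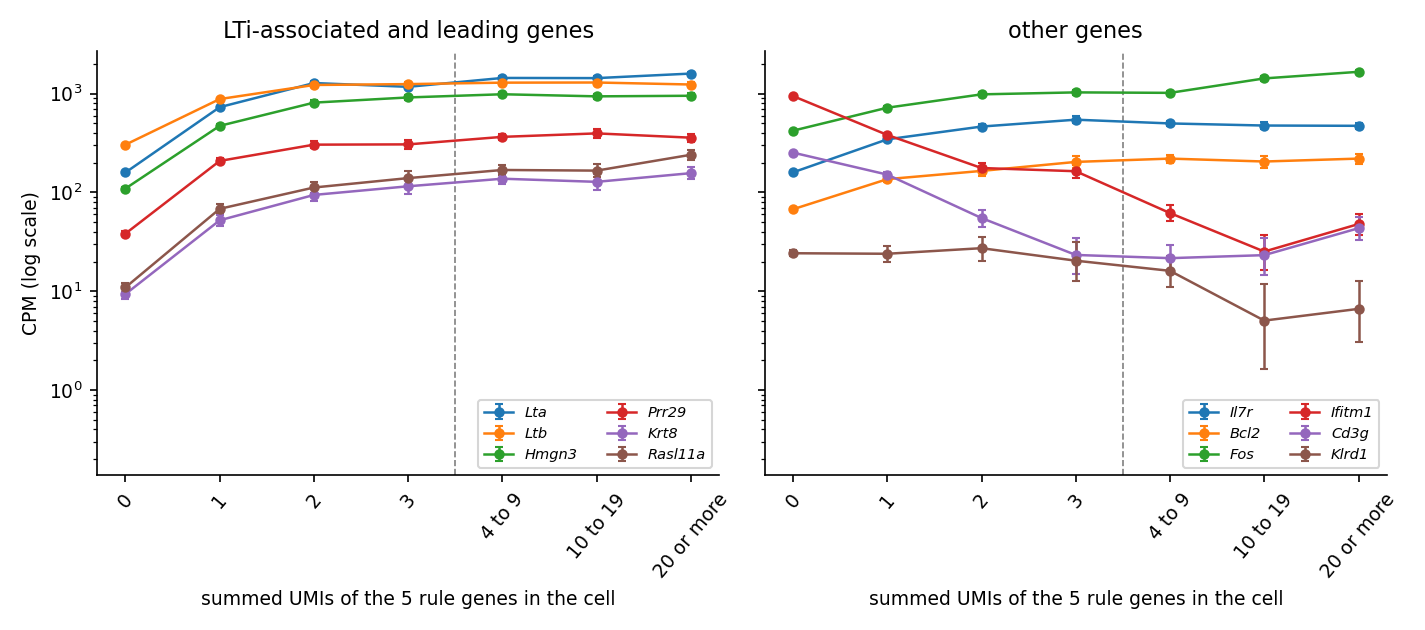
Level in CPM on a log axis against the summed UMIs of the 5 rule genes in the cell, for fetal liver cells of neither the NK or ILC1 rule nor the ILC2 rule. Bars are exact 95% Poisson intervals and the dashed line is the threshold of the rule. Lta stood at 159 CPM at a sum of 0, at 1283 CPM at a sum of 2 and at 1600.2 CPM at sums of 20 or more, while Ifitm1 stood at 947 CPM at a sum of 0 and 47.9 CPM at sums of 20 or more.

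Detection was also compared at equal depth, where Hmgn3 and Krt8, named for their large ratios, are a description. In cells thinned to 2000 UMIs, Lta was detected in 65.6% of members, 16.6% of the rest of fetal liver and 2.45% of B-rule cells. Hmgn3 was detected in 78.3% of members and 19.7% of the rest, and Krt8 in 22.2% and 2.92%. Unthinned, Lta was detected in 82.0% of members and 30.1% of the rest, Hmgn3 in 96.6% and 38.3%, and Krt8 in 47.5% and 6.95%.

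Fewer members than other cells carried RNA of dividing cells. At least 10 UMIs over 10 such genes (Mki67, Top2a, Cdk1, Ccnb1, Ccnb2, Ube2c, Birc5, Cenpf, Hmmr and Tpx2) were found in 84 of 583 members (14.4%), and in 35.6% of the rest of fetal liver. In cells thinned to 2000 UMIs, at least 4 such UMIs were found in 10.9% of members (8.51% to 13.8%), 28.7% of NK or ILC1-rule cells, 26.5% of ILC2-rule cells and 22.4% of the rest (21.5% to 23.3%). The share was thus lower in members at equal depth too. In bone marrow the thinned share was 4.44%.

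Within the members, the 84 dividing cells were set beside 436 cells that had 0 to 2 of these UMIs, and 63 members lay in between. Median depths were 10823 UMIs in dividing members and 5954.5 UMIs in low-dividing members. Of 1380 genes with at least 100 CPM, 79 were at least 2-fold higher in dividing members and 15 at least 2-fold lower. Lta had the lowest ratio of these 1380 genes, at 372 CPM in dividing members and 2062 CPM in low-dividing members, a log2 ratio of -2.47 (-2.62 to -2.32). Bcl2, a survival gene, had 89.9 CPM in dividing members and 275 CPM in low-dividing members, Krt8 68.8 and 167 CPM, Hmgn3 538 and 1156 CPM and Tmem176b 212 and 489.9 CPM. Ltb, at 796 and 1509.5 CPM, and Il7r, at 302 and 589 CPM, lay just within 2-fold. Il22, at 1603 and 2616 CPM, differed less, with a log2 ratio of -0.71. The rule asks for a fixed number of UMIs, so the deeper dividing members could enter at a lower CPM of the rule genes. Ratios of rule genes in this split follow in part from that. Cxcl2 and the activation marker gene Cd69 had log2 ratios of 0.16 and 0.11.

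**Figure D5:**
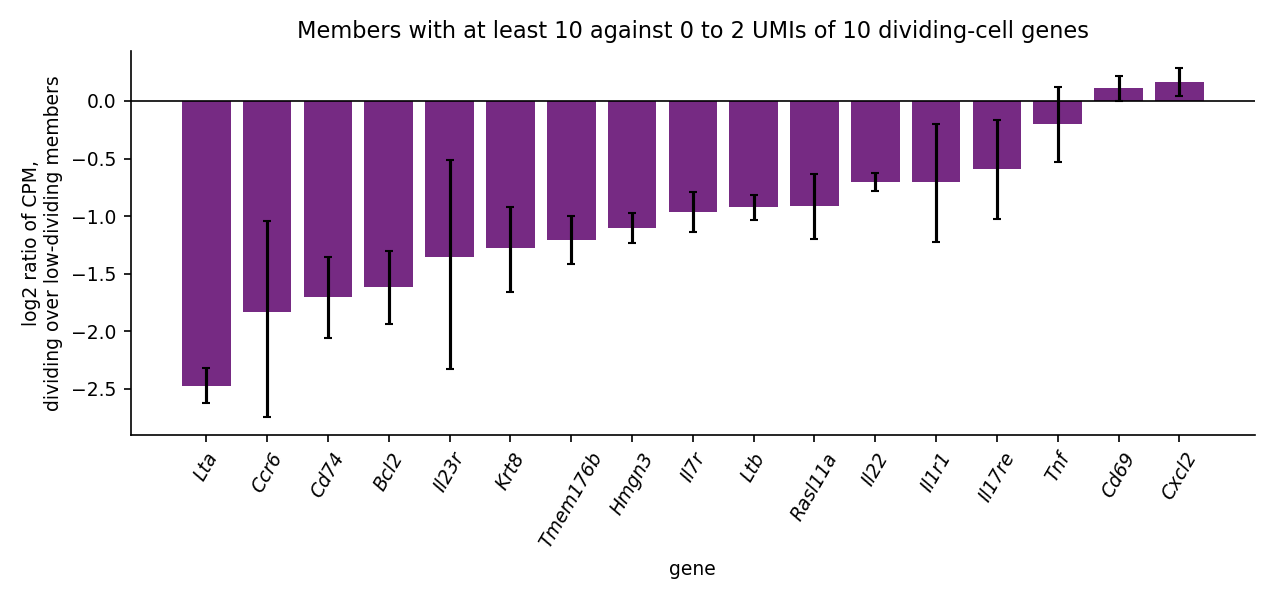
Log2 ratio of CPM of 17 named genes, 84 members with at least 10 UMIs of the 10 dividing-cell genes over 436 members with 0 to 2. Bars are exact conditional 95% intervals. Il22, Il23r, Il17re and Ccr6 are genes of the rule, and their ratios follow in part from it. Lta had a ratio of -2.47 and Cxcl2 of 0.16.

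How members varied among themselves was measured by the Fano factor, the variance of thinned counts over their mean, which is 1 for pure counting noise. Over 2222 genes with a thinned mean of at least 0.1 in 576 members it had a median of 1.04, and 46 genes reached 2. Cxcl2 led with 16.5, followed by Il22, the rule gene, with 10.5, Cd74 with 10.1, the nuclear RNA Malat1 with 8.05 and Lta with 7.81. Next came Plac8 with 6.18, the interferon induced chemokine gene Cxcl10 with 6.16, Actb with 5.49 and Ccl5 with 5.08. Ube2c, Hist1h2ae and Hmgb2, genes of dividing cells, had 4.96, 4.66 and 4.00. In the rest of fetal liver the Fano factors of Cxcl2, Cd74 and Lta were 11.2, 12.1 and 9.92. Cxcl2 was counted in 229 members, and 71.0% of its UMIs lay in the top 58 cells.

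MHC class II RNA was held by few members. Cd74 was counted in 144 members (24.7%), and the top 58 cells held 87.0% of its UMIs. H2-Aa, a class II chain gene, was found in 18.8% of members with a Cd74 UMI and in 1.37% of those without. The 55 members with at least 3 Cd74 UMIs were set beside the 439 with 0, a split chosen after seeing the data. H2-Aa had 283 CPM in Cd74-high members and 1.90 CPM in Cd74-negative members, H2-Eb1 160.1 and 0.952 CPM and H2-Ab1 128 and 12.1 CPM. The chemokine genes Ccl5, at 372 and 87.0 CPM, and Cxcl10, at 575 and 148 CPM, were at least 2-fold higher in the Cd74-high members, as was the surface marker gene Cd7, at 1079 and 411 CPM. For Ccl5, 1 cell held 18.8% of the UMIs of all members, and for H2-Aa 1 cell held 20.6%. The part of single cells in these differences was not tested. Plac8 was lower, at 43.3 and 164 CPM. Lta, at 1707 and 1399 CPM, and Il22, at 1925 and 2356 CPM, lay within 2-fold. Doublets were not removed, and their part in this group was not tested.

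The 13 members without an Il22 UMI entered by the receptor genes alone and were set beside the 497 that reached the rule by Il22. Cd74 had 155 CPM in the Il22 members and 1069 CPM in the 13 cells, and H2-Eb1 had 12.6 and 233 CPM. Lta, at 1508 and 1486 CPM, lay within 2-fold. So few cells give single values that 1 cell can move.

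Il17f was counted in 12 of 51 members with Il17a (23.5%) and in 8.83% of those without. The 98 members with at least 1 UMI of either gene, a split chosen after seeing the data, had 3965 CPM of Il22, against 1952 CPM in the other 485, a log2 ratio of 1.02 (0.96 to 1.08). Median depths were 7510 UMIs in members with an Il17 UMI and 6327 UMIs in the others. Rasl11a had 295 CPM in members with an Il17 UMI and 168 CPM in the others, and Atf3 had 222 and 117 CPM. Lta had 1166 CPM in members with an Il17 UMI and 1565 CPM in the others, a log2 ratio of -0.42. Hmgn3 (944 and 971 CPM) and Il7r (494 and 485 CPM) stood close. The class II gene H2-Eb1 had 2.51 and 21.8 CPM, from 2 and 77 UMIs.

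Splits by a Cd4 UMI and by the amount of Il22 gave few genes at a 2-fold difference. The 84 members with a Cd4 UMI had 1492 CPM of Lta, against 1492 CPM in the 499 without, and 2290.4 CPM of Il22, against 2328 CPM. Those 84 members held 97 Cd4 UMIs in all and had a median of 7572 UMIs, against 6327 UMIs in the others. At so low a count a member without a Cd4 UMI may still carry the RNA. The split therefore cannot show whether members that express Cd4 differ from those that do not. Of 1315 genes with at least 100 CPM, 1 was at least 2-fold higher in members with a Cd4 UMI. It was Cd4 itself, which the split used. Another 2 genes were at least 2-fold lower. The lower genes were Cd74, with 91.4 CPM in members with a Cd4 UMI and 204 CPM in those without, and Plac8, with 88.3 and 193 CPM. Of the 810 Cd74 UMIs in members, 1 cell held 80 (9.88%). The part of that cell in the Cd74 values of this split and of the next was not tested. The 158 members with at least 20 Il22 UMIs were set beside the 339 with 4 to 19, after seeing the data. Il17f had 36.5 CPM in the Il22-richest members and 14.48 CPM in the others, a log2 ratio of 1.33 (0.66 to 2.01), and Cd74 had 72.9 and 201 CPM. Ltb (1255 and 1264 CPM) and Lta (1611 and 1451 CPM) had log2 ratios of -0.01 and 0.15.

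Members with a Ccr6 or Cxcr5 UMI numbered 193 of 583, and 390 had none. CCR6 marks the LTi branch of ILC3 in the mouse. A split at 4 UMIs of these genes left 4 cells and is not described, and the split at 1 UMI was chosen after seeing the data. Lta had 1803 CPM in members with either receptor and 1332 CPM in those without, a log2 ratio of 0.44 (0.36 to 0.51). Il7r had 584 and 436 CPM and Bcl2 259.5 and 195 CPM. Ccl5 had 60.5 CPM in members with either receptor and 132 CPM in those without, a log2 ratio of -1.13, and Cxcl10 had 118 and 228 CPM. Of the 468 Ccl5 UMIs in members, 1 cell held 88 (18.8%), and the part of that cell in this ratio was not tested. Cd4 (22.4 and 22.4 CPM) stood close.

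Bone marrow was searched by the same rule to see how many adult αLPs it takes in. It was met by 4 of 7258 bone marrow cells, 0.0551% with an interval of 0.0150% to 0.141%, against 6.79% in fetal liver, and bone marrow cells were shallower. In cells thinned to 2000 UMIs, Il22 was counted in 85.6% of members, in 3.11% of the rest of fetal liver and in 9 of 5923 bone marrow cells (0.152% (0.0695% to 0.288%)). The shares of members and of the rest follow largely from the rule, which rests mainly on Il22. The bone marrow cells were taken whatever their marker sum, so these shares do not compare the tissues. With 4 bone marrow cells in the rule, the comparison of genes between members and bone marrow rule cells was not made. In all bone marrow cells Lta stood at 8.75 CPM and Krt8 at 0.0668 CPM, against 1492 CPM of Lta and 142 CPM of Krt8 in members. Il7r had 486 CPM in members and 417 CPM in bone marrow, Tcf7 had 375 and 276 CPM, and Bcl2 had 217 and 382 CPM. Tissue, age and library cannot be told apart in these values.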

How the data were processed

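Single cell 3′ libraries of sorted αLPs were analysed from the deposited matrices of UMI counts per gene and cell barcode, which the authors made with the matrix software 3.0.1 (matrix format 2), per the file headers. Reads were aligned to mm10 and Seurat 4.0 was used, per the submitters' processing notes; no source used here states their filters. Values are counts, not normalized, for 27998 genes, and no per-sample column was left out. There was 1 library per tissue, so no replicate and no test.

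Barcodes with at least 500 genes and at most 10% mitochondrial UMIs were kept, which removed 363 of 8946 in fetal liver and 109 of 7367 in bone marrow. No doublet caller was run. Cells were classed by marker sums as described above, without clustering. Counts were summed per group and scaled to CPM, and ratios were given as log2 of the CPM ratio with an exact conditional 95% interval. A gene was called at a 2-fold difference with at least 10 CPM in the higher group, where 3 UMIs stood in for 0. Shares have Clopper-Pearson intervals, levels Poisson intervals. For shares of cells and Fano factors each cell was thinned to 2000 UMIs. The genes named were, in each comparison, the 15 largest and 10 smallest ratios among genes with at least 50 CPM, without genes of the rule, gene models, mitochondrial and ribosomal protein genes, then up to 4 members of each of 22 lists and all expressed members of 5 of them, and in each split the 10 largest and 10 smallest ratios among genes with at least 100 CPM. Some single genes were added for their role after their values were seen. The members and lists were chosen with earlier results of these data known. The comparison of members with bone marrow cells of the same rule was not made, since 4 cells met it. Some genes of the lists are not reported here by name but count in the totals of their lists. The ratio calculation was tested on simulated counts. Gene coordinates are from GENCODE M21 on mm10.

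Python 3.11.15, numpy 2.4.6, scipy 1.17.1 and pandas 2.3.3 were used, with R 4.3.3 and edgeR 4.0.16 for TMM factors only. Alternatives were other thresholds, cell filters, scalings, minimum levels, thinning and the removal of the deepest cells.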

Additional observations from a re-analysis of the deposited data

Results flagged for a closer look

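In bone marrow, 4 cells met the LTi or ILC3 rule although these cells entered no comparison. Their totals were 3176, 3217, 3368 and 17435 UMIs, and their Il22 counts, in the same order, were 0, 7, 0 and 7 UMIs. Lta and Krt8 were at 0 UMIs in all 4 cells. Cd74, the MHC class II invariant chain gene, had 0, 10, 76 and 119 UMIs in the same order. They were 0.0551% of bone marrow cells, with an interval of 0.0150% to 0.141%, and the part of free RNA or doublets was not tested.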

How the results depend on the processing

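The share of fetal liver cells that met the rule was 8.45% with a threshold of 3 UMIs, 5.31% with 6 UMIs and 10.3% with a threshold of 1 UMI in cells thinned to 2000. With a minimum of 50 CPM, 105 genes were at least 2-fold higher and 58 lower against the rest of fetal liver, 107 and 98 against NK or ILC1-rule cells, and 164 and 87 against ILC2-rule cells. With no minimum and a pseudocount of 1 CPM the counts were 565 and 575, 803 and 469, and 1070 and 629 in the same order. These counts differ by construction in how many genes they test. In thinned cells 428 genes were lower against NK or ILC1-rule cells and 488 against ILC2-rule cells, and the cause was not tested. The other counts of genes stayed within 1.5 times. TMM scaling shifted log2 ratios by -0.06, -0.16 and -0.09 in the 3 comparisons. Of 2309 values of single genes under the alternatives, 1989 stayed within the interval of the reported ratio, 318 left it and 2 that had passed 2-fold turned sign, Hba-a2 to 0.80 and Hbb-bs to 0.45 with at least 1000 genes per cell. Without the 10% of members richest in Il22, chosen after seeing the data, 362 genes were higher and 265 lower. No paired analysis was possible because each tissue has 1 library and the result comes from no test. Alternatives for the bone marrow rule cells were not run, as 4 cells met the rule. Counting error of few UMIs limits genes near 0.692 CPM in members.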

Other observations

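Some genes outside the lists and the leading genes were also higher in members, and were chosen after their values were seen. The membrane protein genes Tmem176a and Tmem176b, which neighbour each other, had 306 CPM in members and 69.4 CPM in the rest of fetal liver and 396 and 93.6 CPM. Tmem176b was counted in 86.0% of members with a Tmem176a UMI and in 35.9% of those without. The X-linked genes Xlr4a, Xlr4b and Xlr4c had log2 ratios of 1.80, 2.16 and 2.25, but they are near-identical copies whose UMIs may be split uncertainly. The transporter gene Slc6a13 had 566 CPM in members and 132 CPM in the rest, and Ddc, the gene of aromatic amino acid decarboxylase, had 89.0 and 23.6 CPM. The actin bundling gene Espn had 145 and 30.8 CPM, Igfbp7 170.0 and 39.5 CPM and the chemokine gene Cxcl3 178 and 42.4 CPM. Cxcl3 was counted in 40.6% of the 229 members with a Cxcl2 UMI and in 26.3% of those without.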
